A study of Mus musculus with 12 samples.

Results

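Terminal hypertrophic genes and their regulators were followed in the hypertrophic zone of the growth plate in 2 mouse models of metaphyseal chondrodysplasia. The set held 9 genes: the matrix genes Col10a1, Ibsp and Spp1, and the transcription factors Runx2, Runx3, Mef2c, Dlx5, Foxa2 and Foxa3. Members were taken by name, as every probe other than control spots whose gene name in the scanner files is one of the 9. They had 14 probes, out of 41174 probes with 27962 gene names on the array. All 9 genes had a probe that was well above background, by the scanner software's own test, on 12 of 12 arrays, and none of their probes was saturated on any array.

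The data came from 12 mice aged 14 days, in 4 groups of 3. Schmid mice were homozygous for a knock-in allele, Col10a1 p.Asn617Lys, in which the asparagine at residue 617 of collagen X is replaced by lysine. Cog mice carried ColXTgcog, a transgene in which the Col10a1 promoter drives a misfolding thyroglobulin in hypertrophic chondrocytes, on top of their own unaltered Col10a1. By the study's account, mice with the transgene on 1 or on both chromosomes were not told apart and probably both contributed, so the transgene dose within the Cog group is unknown. Each model was compared with wildtype littermates of its own background. Tibial hypertrophic zones were cut by hand from frozen sections, the RNA was amplified in 2 rounds, labelled with Cy3 and hybridized to 1 single-colour array per mouse. The groups have limits as models: the knock-in changes the Col10a1 message itself, the Cog transgene depends on the Col10a1 promoter, and amplified RNA from dissected tissue contains every cell type that was cut out with the zone.

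Hypertrophic chondrocytes are the last stage of the growth plate cartilage. Cells that leave the cell cycle enlarge and secrete collagen X, and the terminal cells next to the bone go on to make proteins also found in bone, such as bone sialoprotein and osteopontin, before vessels and matrix-degrading cells enter the cartilage. RUNX, MEF2, DLX and FOXA proteins bind regulatory DNA of hypertrophic genes, and they share many of these targets with osteoblasts.

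To show what was read for the genes on which the genotypes and the results turn, 3 probes are printed 5′ to 3′ in the orientation of the array, with coordinates of build mm7 (NCBI35, Aug2005) as the scanner files give them. The Col10a1 probe reads the message that carries the knock-in. Its intensity does not separate the mutant from the wildtype message. The Runx2 probes are shown because the 4 probes of this gene differed. The first covers a start codon, in capitals at base 13, which belongs to the isoform made from the distal Runx2 promoter, and the second lies inside the gene.
Col10a1 probe A_51_P289032, chr10:34176400-34176459, plus strand: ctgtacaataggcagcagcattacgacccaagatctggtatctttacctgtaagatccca
Runx2 probe A_52_P55876, chr17:42937487-42937546, minus strand: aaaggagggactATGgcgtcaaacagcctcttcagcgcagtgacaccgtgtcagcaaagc
Runx2 probe A_52_P460545, chr17:42731714-42731773, minus strand: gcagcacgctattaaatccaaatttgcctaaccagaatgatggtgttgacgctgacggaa

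Windows of 250 bases before the transcript starts of the matrix genes and of Runx2 are printed because these are the sites where the regulators of the set could meet their targets. They come from RefSeq in build GRCm38.p6, and the capitals mark the motif that was searched and found. Both strands were searched, so the capitals may be the reverse complement. The RUNX core was taken as TGTGGT. Forkhead proteins were represented by the core TGTTTA. Homeodomain proteins were represented by the core TAATTA, which is its own reverse complement. The MEF2 consensus was searched as well, and no matches in the members' windows overlapped.
Col10a1, chr10:34389731-34389980, plus strand: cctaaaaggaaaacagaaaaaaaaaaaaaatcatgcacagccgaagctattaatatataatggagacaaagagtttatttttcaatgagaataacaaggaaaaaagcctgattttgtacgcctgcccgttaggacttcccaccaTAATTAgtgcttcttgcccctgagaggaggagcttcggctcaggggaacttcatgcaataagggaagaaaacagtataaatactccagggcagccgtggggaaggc
Ibsp, chr5:104299037-104299286, plus strand: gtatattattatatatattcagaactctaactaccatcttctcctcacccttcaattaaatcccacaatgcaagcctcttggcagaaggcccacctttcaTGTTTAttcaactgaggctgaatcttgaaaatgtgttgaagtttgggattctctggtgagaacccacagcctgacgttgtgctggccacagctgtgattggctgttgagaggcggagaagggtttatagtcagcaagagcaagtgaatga
Spp1, chr5:104434861-104435110, plus strand: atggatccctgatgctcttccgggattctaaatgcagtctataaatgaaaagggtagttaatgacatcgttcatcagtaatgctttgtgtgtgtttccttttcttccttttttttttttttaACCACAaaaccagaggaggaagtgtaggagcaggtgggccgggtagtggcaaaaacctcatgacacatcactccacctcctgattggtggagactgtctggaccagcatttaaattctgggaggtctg
Runx2, chr17:44814628-44814877, minus strand: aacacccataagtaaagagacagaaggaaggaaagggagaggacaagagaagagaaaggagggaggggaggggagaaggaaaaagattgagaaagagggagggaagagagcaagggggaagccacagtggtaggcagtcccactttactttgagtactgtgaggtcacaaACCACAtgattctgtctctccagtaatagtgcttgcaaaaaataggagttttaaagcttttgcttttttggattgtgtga

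The homeodomain core lay 106 to 101 bases before the start of Col10a1, and the forkhead core 150 to 145 bases before that of Ibsp. The RUNX core lay 128 to 123 bases before the first start of Spp1 and 80 to 75 bases before that of Runx2. RefSeq windows were found for 8 of the 9 genes, 14 windows in all, and Dlx5 had none. Of the 14 windows, 3 held the RUNX core, 1 the forkhead core, 3 the homeodomain core and 0 the MEF2 consensus. The remaining matches were the RUNX core at 134 to 129 and 126 to 121 bases before a start of Runx3, and the homeodomain core before the second listed starts of Spp1 and Mef2c. Over all 32851 windows of this length, the shares were 14% for the RUNX core, 12% for the forkhead core, 4.84% for the homeodomain core and 2.92% for the MEF2 consensus. A match describes these letters and is not a binding site, and these windows do not cover enhancers.

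Levels are given below as normalized log2 signal, on which a difference of 1 is a 2-fold change and which has no meaning between probes. A gene was called where limma's p, adjusted over all 41174 probes, was at most 0.05 and the means were at least 2-fold apart. Where a gene had several probes, the brightest over the 12 arrays stands for it and the others follow. The 3 mice of each group were separate animals with 1 sample and 1 array each. Errors thus hold the variation between animals together with that of dissection, amplification and array, which cannot be separated.

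In Schmid, 2 of the 9 genes were called lower, Foxa2 and Foxa3, and 0 were called higher. In bulk samples such as these, fewer cells of a type and less RNA per cell cannot be told apart. Among the 10424 genes whose brightest probe was well above background on all 12 arrays, 11.3% were called lower and 8.73% higher. For 4 members, Ibsp, Runx2, Foxa2 and Foxa3, the highest Schmid array was below the lowest wildtype array, as was so for 26.9% of those genes. The median difference of the 9 members was -0.68 in Schmid, with 8 of 9 differences negative, beside a median of -0.08 over the detected genes and quartiles of -0.62 and 0.47. Negative differences were found in 53.9% of the detected genes. In Cog, 0 of 9 genes were called by limma in either direction, where 1.19% of detected genes were called lower and 3.18% higher. An unadjusted limma p of 0.05 or less was reached by 0 of 9, and by 25.6% of detected genes. The Cog median was -0.36, with 7 of 9 differences negative, beside -0.03 over the detected genes, of which 52.6% had a negative difference. The 2 wildtype groups overlapped for all 9 members. Of the detected genes, 7.05% lay all higher and 8.31% all lower in the Schmid-background wildtype. Between these groups 0 members were called by limma, beside 0.672% of detected genes called either way. An unadjusted limma p of 0.05 or less was reached by 0 members, and by 17% of detected genes.

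**Figure D1:**
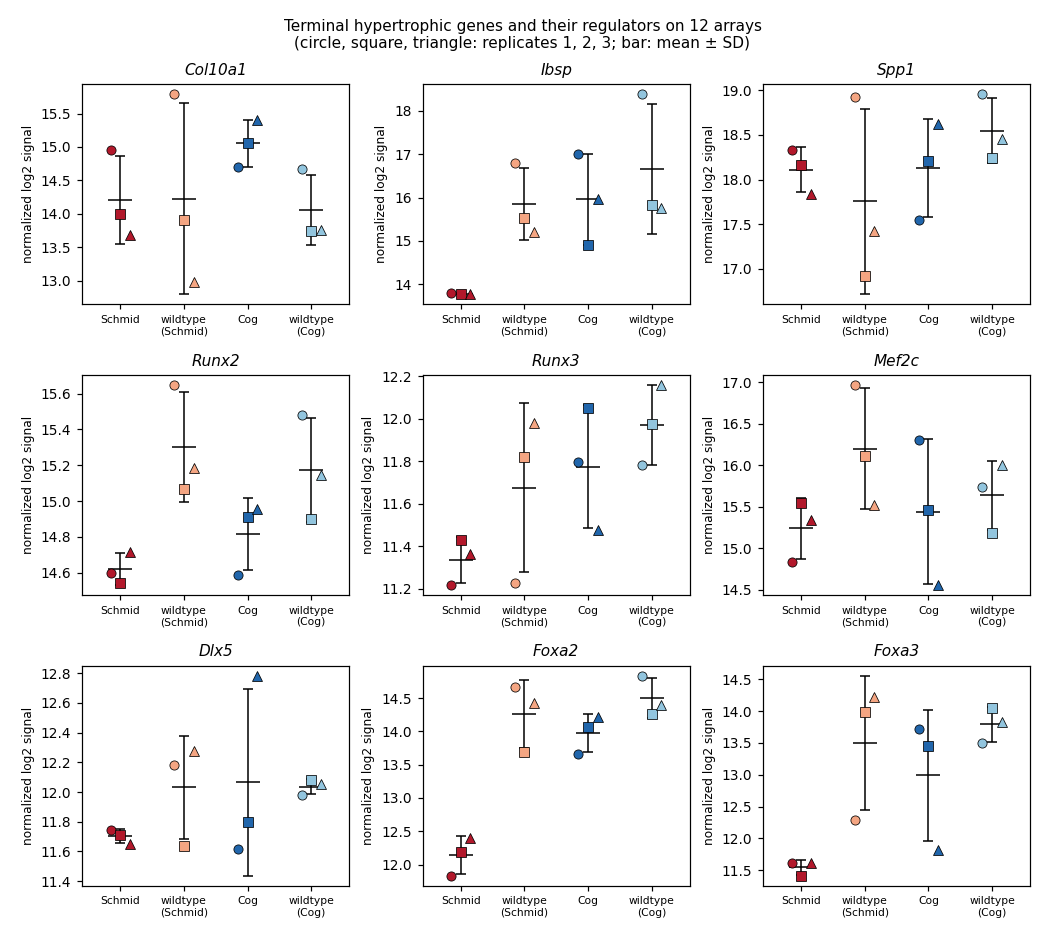
Normalized log2 signal of the brightest probe of each of the 9 genes, with 1 point per array (3 mice per group) and the group mean and SD. The Schmid arrays of Ibsp, Runx2, Foxa2 and Foxa3 lie below all 3 of their wildtype arrays, and the Cog arrays of Col10a1 lie above theirs.

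Slides moved with genotype. The 3 Schmid arrays filled 1 slide, where the median over negative control spots was 202 to 617, against 977 to 1894 on the other 3 slides. Neither mutant shared a slide with wildtype mice of its background, and the effects of slide and genotype cannot be told apart. The share of spots well above background was 58.9 to 61.8% in Schmid and 39.6 to 59.4% in the other groups. The thyroglobulin probes, named Tgn on the array, read 17.37 to 17.95 in Cog and 9.44 to 10.22 in the other groups.

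Col10a1, the gene for collagen X and the marker of hypertrophic chondrocytes, is mutated in Schmid, and its promoter drives the Cog transgene. It read 14.95, 13.99 and 13.69 in Schmid and 15.79, 13.91 and 12.99 in their wildtype. The Schmid arrays lay within the range of the wildtype arrays, which spread widely. The difference was -0.02 ± 0.62 (SE, n = 3 per group, limma adjusted p = 0.987), with a 95% interval of -1.38 to 1.35 that takes in changes of more than 2-fold either way. With 1 array left out at a time, this difference ran from -0.64 to 0.76, the lowest without wildtype replicate 3 and the highest without wildtype replicate 1.

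In Cog, Col10a1 read 14.71, 15.06 and 15.40, against 14.67, 13.75 and 13.76 in the wildtype of that background. Every Cog array was above every wildtype array, which was also seen in 15.6% of detected genes, although the lowest Cog array, at 14.71, was close to the highest wildtype array, at 14.67. The difference was 1.0 ± 0.62 (SE, limma adjusted p = 0.387), with an interval of -0.37 to 2.36. The Schmid and Cog differences were themselves apart by -1.01, which did not pass the test (limma adjusted p = 0.449).

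Ibsp encodes bone sialoprotein, a mineral-binding protein of terminal chondrocytes and osteoblasts. It read 13.80, 13.78 and 13.78 in Schmid and 16.79, 15.53 and 15.22 in wildtype. The Schmid arrays lay close together, below every wildtype array. The difference was -2.06 ± 0.73 (SE), a 4.17-fold lower mean, with an interval of -3.67 to -0.45 and a limma adjusted p of 0.0626, so Ibsp was not called. With the replicate number as a block the same difference had a limma adjusted p of 0.0183 and was called, and it was called under 9 of 25 alternative settings. These were 1 of 12 fits with 1 array left out and 8 of 12 others, and the remaining setting was the test against a 2-fold change. The fit shares 1 variance over groups of unequal spread, and the SD of Ibsp was 0.01 in Schmid and 0.83 in its wildtype.

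Ibsp read 17.00, 14.91 and 15.96 in Cog against 18.38, 15.82 and 15.76 in wildtype. These groups overlapped, and the difference of -0.69 ± 0.73 (SE, limma adjusted p = 0.627) was within their spread. In the order of the group means, Schmid at 13.79 ± 0.01 (SD) was the lowest, and the wildtype of the Schmid background at 15.85 ± 0.83, Cog at 15.96 ± 1.04 and the wildtype of the Cog background at 16.65 ± 1.49 overlapped. The Schmid and Cog differences were not shown to differ (-1.37, limma adjusted p = 0.383).

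Spp1 encodes osteopontin, another mineral-binding protein of terminal chondrocytes and bone. It read 18.33, 18.16 and 17.84 in Schmid, 18.92, 16.92 and 17.42 in their wildtype, 17.54, 18.21 and 18.63 in Cog and 18.96, 18.24 and 18.45 in the wildtype of that background. Groups overlapped in both comparisons. The differences were 0.36 ± 0.46 (SE, limma adjusted p = 0.597) in Schmid and -0.42 ± 0.46 (adjusted p = 0.642) in Cog. The interval in Schmid, -0.66 to 1.38, holds a rise of more than 2-fold but no such fall. With 1 array left out, its Schmid difference ran from -0.06, without wildtype replicate 2, to 0.94, without wildtype replicate 1 (limma adjusted p of 0.945 and 0.0563).

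Foxa2, a forkhead transcription factor of late hypertrophy that is otherwise known from liver, gut and lung epithelium, had the smallest adjusted p of the 9 genes in Schmid. It read 11.83, 12.19 and 12.41 in Schmid, 14.66, 13.69 and 14.43 in their wildtype, 13.66, 14.07 and 14.21 in Cog and 14.84, 14.26 and 14.40 in the wildtype of that background. Every Schmid array was more than 1 log2 unit below every array of the other groups. The Schmid difference was -2.12 ± 0.27 (SE), 4.33-fold lower, with an interval of -2.72 to -1.52 and a limma adjusted p of 0.00069. It was called under 24 of 25 alternative settings, the exception being a test against a 2-fold change rather than against 0 (limma treat, adjusted p = 0.105). Wildtype replicate 3, which shared its slide with the Cog arrays, read 14.43, between the other 2 wildtype arrays of that background. That reading says nothing of the slide that held only the Schmid arrays, whose part in the difference was not tested.

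In Cog, Foxa2 was 0.52 lower on the log2 scale (-0.52 ± 0.27, SE), a 1.44-fold difference that was not called (limma adjusted p = 0.301). All 3 Cog arrays were below all 3 wildtype arrays, as were 12.3% of detected genes. The Schmid difference exceeded the Cog difference by -1.59 ± 0.38 (SE, interval -2.44 to -0.74, limma adjusted p = 0.0195). Foxa2 was the only one of the 9 members for which this test of the difference between models passed, where 15% of detected genes passed it. The call was lost without replicate 2 of the Cog-background wildtype (adjusted p = 0.0522) and when arrays were scaled to a common 75th percentile, after the background correction used here (-1.24, adjusted p = 0.0757) or that of the scanner software (-1.51, adjusted p = 0.0919), and in the test against a 2-fold change.

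The array carries 10 copies of the brightest probes of Foxa2, Runx2 and Spp1, spread over its surface, which gives repeated readings of the same RNA and no further replicates. All 10 Foxa2 spots gave a Schmid difference of -2.25 to -1.98 and a Cog difference of -0.67 to -0.33. Of the 10 Runx2 spots, the 9 measured on every array gave -0.77 to -0.62 in Schmid and -0.43 to -0.31 in Cog. The 8 such spots of Spp1 gave 0.31 to 0.41 in Schmid and -0.55 to -0.31 in Cog. Within each gene and each comparison, every one of these spots had the same sign.

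**Figure D2:**
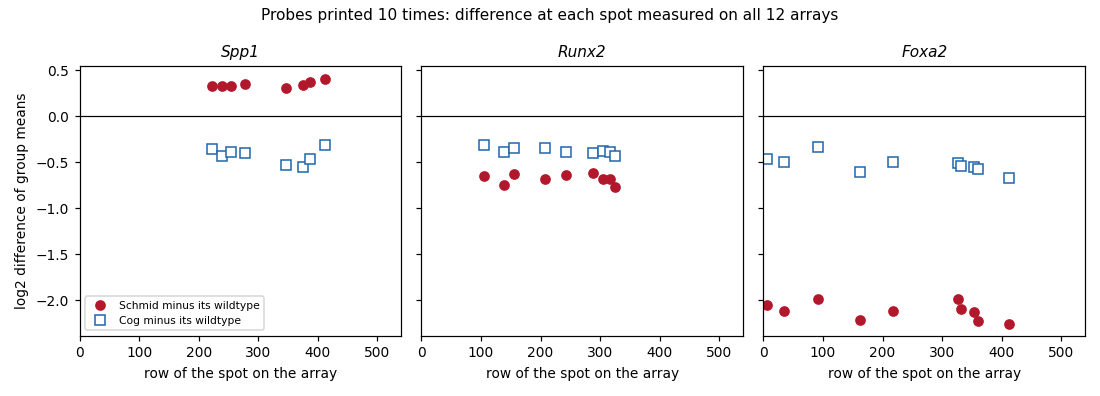
Mutant minus wildtype difference in log2 signal for each repeated spot of the Spp1, Runx2 and Foxa2 probes, against the row of the array on which the spot lies, for spots measured on all 12 arrays. The spots of a gene stay together over the array, with Foxa2 between -2.25 and -1.98 in Schmid and between -0.67 and -0.33 in Cog.

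Foxa3, the second forkhead factor of the set and a liver factor as well, read 11.62, 11.42 and 11.62 in Schmid and 12.30, 13.99 and 14.23 in wildtype. All Schmid arrays were below all wildtype arrays, of which replicate 1 stood apart from the other 2. The difference was -1.95 ± 0.55 (SE, interval -3.17 to -0.74), 3.87-fold lower, and was called (limma adjusted p = 0.0278). The call was lost when any 1 of the 3 Schmid arrays, or wildtype replicate 2 or 3, was left out (adjusted p of 0.0659 to 0.102), while the difference stayed between -2.56 and -1.59. It was also lost when the scanner software's processed signal was quantile normalized (-1.82, adjusted p = 0.0706) or scaled to the 75th percentile (-1.81, adjusted p = 0.0661), and in the test against a 2-fold change.

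Foxa3 read 13.71, 13.45 and 11.81 in Cog and 13.50, 14.05 and 13.83 in wildtype. The groups overlapped, and Cog replicate 3 was near the Schmid level. The difference of -0.80 ± 0.55 (SE, limma adjusted p = 0.436) was not called, and the Schmid and Cog differences were not shown to differ (-1.15, adjusted p = 0.330). In the order of means, Schmid at 11.55 ± 0.12 (SD) was followed by Cog at 12.99 ± 1.03, the Schmid-background wildtype at 13.50 ± 1.05 and the Cog-background wildtype at 13.80 ± 0.27, the last 3 overlapping.

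Runx2, the RUNX factor needed for osteoblast formation and for chondrocyte hypertrophy, was read by 4 probes. The brightest read 14.60, 14.54 and 14.72 in Schmid, 15.65, 15.07 and 15.19 in their wildtype, 14.59, 14.91 and 14.96 in Cog and 15.48, 14.90 and 15.15 in the wildtype of that background. All Schmid arrays were below all their wildtype arrays. The Schmid difference of -0.68 ± 0.19 (SE, interval -1.10 to -0.26) passed the test at a limma adjusted p of 0.0271, but its size of 1.60-fold was under the 2-fold limit of a call. With the deposited values in place of those made here, the difference was -0.63 and the limma adjusted p 0.0576. With 1 array left out, the adjusted p ran from 0.0202 to 0.0780. Among the other settings, apart from the test against a 2-fold change, it reached 0.0847. In Cog the groups overlapped, with a difference of -0.36 ± 0.19 (SE, adjusted p = 0.313).

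The second Runx2 probe (A_52_P415319) read 13.73, 13.37 and 13.70 in Schmid against 14.27, 13.17 and 13.56, a difference of -0.07 (limma adjusted p = 0.875). In Cog it read 12.79, 13.32 and 13.24 against 13.88, 13.56 and 13.48, all lower, with a difference of -0.52 (adjusted p = 0.287). The order of the models on this probe was thus the opposite of that on the brightest probe, and neither pair of Schmid and Cog differences was shown to differ.

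The probe over the distal start codon printed above (A_52_P55876) read 10.24, 10.69 and 10.71 in Schmid and 11.46, 10.40 and 10.18 in their wildtype, which overlapped (-0.14, limma adjusted p = 0.770). It was well above background on 0 of 3 Cog arrays, so no fold was formed there. It differed most between the wildtype groups: the Cog-background arrays read 9.38, 9.79 and 9.99, all below the Schmid-background arrays, by 0.96 on the log2 scale (adjusted p = 0.172). The fourth probe was well above background on 3 of 12 arrays, with 0 of 3 in Schmid and 1 of 3 in its wildtype. Its Schmid difference of -0.54 (limma adjusted p = 0.0435) thus compares signals near background. No fold was formed from it, and its size was below the limit of a call.

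Runx3, which acts with Runx2 in hypertrophy, read 11.22, 11.43 and 11.36 in Schmid, 11.23, 11.82 and 11.98 in their wildtype, 11.79, 12.05 and 11.48 in Cog and 11.78, 11.97 and 12.16 in the wildtype of that background. Both comparisons overlapped. The differences were -0.34 ± 0.21 (SE, limma adjusted p = 0.252) in Schmid and -0.20 ± 0.21 (adjusted p = 0.634) in Cog. The other Runx3 probe was well above background on 1 of 12 arrays and is not read further.

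Mef2c, a MADS-box factor held in check by class II histone deacetylases, read 14.83, 15.55 and 15.34 in Schmid against 16.97, 16.11 and 15.52 in wildtype. The highest Schmid array, at 15.55, and the lowest wildtype array, at 15.52, overlapped narrowly. The difference was -0.96 ± 0.46 (SE, interval -1.99 to 0.07, limma adjusted p = 0.151). In Cog, Mef2c read 16.31, 15.46 and 14.56 against 15.74, 15.18 and 15.998, a difference of -0.20 ± 0.46 (adjusted p = 0.846) with full overlap. The other Mef2c probe was well above background on 0 of 12 arrays.

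Dlx5, a homeodomain factor that promotes hypertrophy and bone formation, read 11.74, 11.71 and 11.65 in Schmid and 12.18, 11.64 and 12.28 in wildtype, a difference of -0.33 ± 0.27 (SE, limma adjusted p = 0.393). In Cog it read 11.62, 11.80 and 12.78 against 11.98, 12.08 and 12.05, a difference of 0.03 ± 0.27 (adjusted p = 0.966). Both comparisons overlapped, and Cog replicate 3 was the highest of the 12 arrays.

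**Figure D3:**
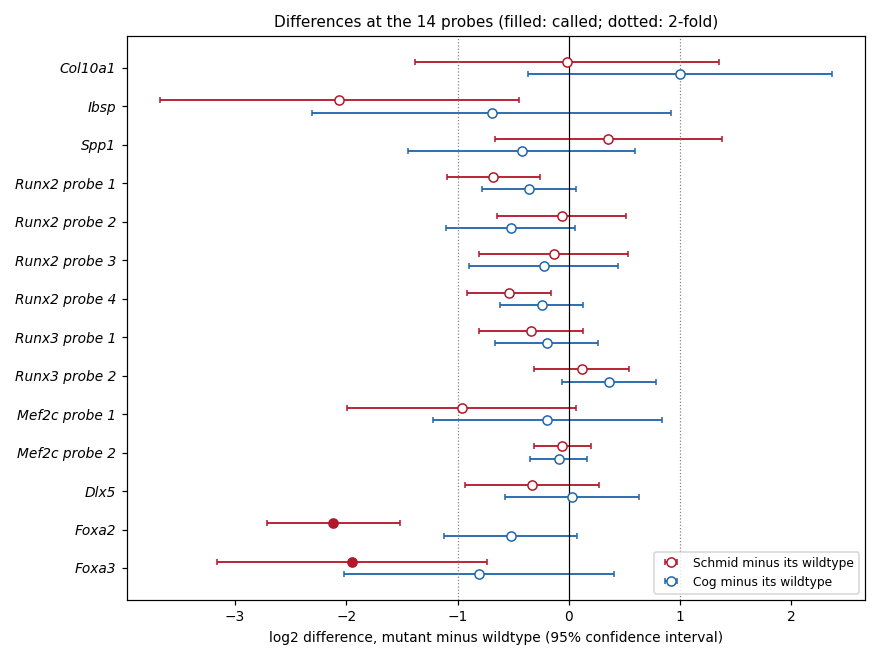
Mutant minus wildtype difference in log2 signal for all 14 probes of the 9 genes, Schmid and Cog side by side, with 95% confidence intervals from limma, filled symbols for calls and dotted lines at a 2-fold change. The Schmid intervals of Foxa2 (-2.72 to -1.52), Foxa3 (-3.17 to -0.74), Ibsp (-3.67 to -0.45) and the brightest Runx2 probe (-1.10 to -0.26) lie below 0.

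The members did not share 1 order of the mice. Wildtype replicate 1 of the Schmid background was the highest of its group for 6 of 9 genes, and replicate 1 of the Cog background for 5 of 9. Schmid replicate 1 was the highest of its group for 5 genes and Cog replicate 3 for 5. Over 12814 detected probes, the median SD was 0.19 in Schmid, 0.39 in its wildtype, 0.31 in Cog and 0.30 in the wildtype of that background, so the Schmid arrays were the most alike.

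Genes of the same pathways were taken from a list of 45 symbols, older and newer names included, of which 38 were measured on the array and 23 were well above background on all 12. In Schmid, 4 of the 38 were called lower and 1 higher, and their median difference was -0.21. Of all 27962 genes, 5.75% were called lower and 5.8% higher, and of the 10424 detected genes 11.3% and 8.73%. In Cog, 2 were called lower and 0 higher, with a median of -0.25. Of all genes, 0.837% were called lower and 1.89% higher in Cog, and of the detected genes 1.19% and 3.18%. The 13 terminal targets had 13 of 13 negative differences in Schmid, a median of -1.11 and 3 lower calls, where 56.9% of all genes had a negative difference. The 25 factors and cofactors had a median of -0.09, with 1 higher and 1 lower call.

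Ihh encodes Indian hedgehog, the signal that early hypertrophic cells send to dividing chondrocytes. It averaged 13.44 ± 0.13 (SD) in Schmid against 16.99 ± 0.44, 11.7-fold lower, and 15.78 ± 0.35 in Cog against 17.15 ± 0.61, 2.58-fold lower, with limma adjusted p of 0.000136 and 0.0361. Its log2 differences were -3.55 and -1.37, and they differed between the models by -2.18 (adjusted p = 0.00930). The other Ihh probe gave -1.42 in Schmid, which was called, and -1.01 in Cog and -0.41 between the models, which were not. The call between the models was also lost when the processed signal was scaled to the 75th percentile (-1.76, adjusted p = 0.107) and in the test against a 2-fold change. The Cog call was lost in 7 of 12 fits with 1 array left out, namely any Schmid array, replicates 2 and 3 of Cog, or replicates 2 and 3 of its wildtype (adjusted p of 0.0532 to 0.132).

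Akp2, now named Alpl, encodes the alkaline phosphatase that frees phosphate for mineral. It averaged 16.12 ± 0.54 (SD) in Schmid against 17.23 ± 0.04, 2.16-fold lower (limma adjusted p = 0.0210), a call lost without Schmid replicate 1 or without replicate 2 or 3 of its wildtype (adjusted p of 0.0577 to 0.0660), and under 2-fold with array weights (-0.92). In Cog it averaged 17.89 ± 0.17 against 17.00 ± 0.53, and all 3 Cog arrays were above all wildtype arrays, although the difference of 0.89 was not called (adjusted p = 0.112). The test between the models passed, with a value of -2.0 (adjusted p = 0.0100).

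Mmp9, a gelatinase of osteoclasts and of cells at the cartilage and bone front, fell 7.03-fold in Schmid (-2.81 ± 0.50, SE, limma adjusted p = 0.00363), and its other probe gave -1.80 and was not called. Dmp1, a matrix protein of osteocytes and mineralizing cells, fell 3.72-fold in Cog (-1.90 ± 0.46, SE, adjusted p = 0.0438) and was -1.13 in Schmid (adjusted p = 0.0939). The Dmp1 call in Cog was lost in 9 of 12 fits with 1 array left out, each Schmid, Cog and Cog-background wildtype array in turn (adjusted p of 0.0568 to 0.118). Mmp13, a collagenase that is a RUNX2 target, was -1.26 in Schmid, but its wildtype arrays spread from 12.97 to 16.36 and it was not called (adjusted p = 0.373).

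Among the factors, Hdac7a (Hdac7), a class II histone deacetylase that represses MEF2 and RUNX2, fell 2.90-fold in Schmid (-1.54 ± 0.31, SE, limma adjusted p = 0.00687). Its other probe gave -0.18 and was not called. Msx2, a homeodomain factor of bone, rose 2.08-fold in Schmid (1.05 ± 0.32, SE, adjusted p = 0.0368), with its wildtype well above background on 1 of 3 arrays. The Msx2 call was lost with the replicate block (adjusted p = 0.0579) and without Schmid replicate 1 or 3 or wildtype replicate 2 or 3 (adjusted p of 0.0684 to 0.124). Cbfb, the partner that RUNX proteins need on DNA, was -0.12 in Schmid and -0.26 in Cog and was not called (adjusted p of 0.826 and 0.710). The models differed by 0.14 at this probe, which was not called. The other Cbfb probe gave -0.77 in Schmid and 0.24 in Cog, not called, and -1.01 between the models, which was called. Of the FOXA family, Foxa1 was well above background on 1 of 12 arrays.

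**Figure D4:**
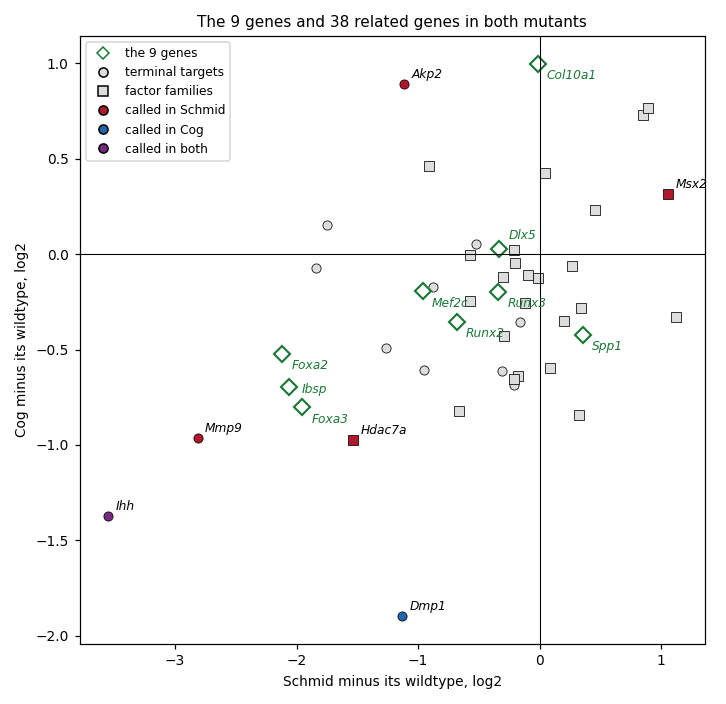
Cog difference against Schmid difference, in log2 signal relative to each model's wildtype, for the 9 members and the 38 related genes. Ihh at -3.55 and Mmp9 at -2.81 lie farthest to the Schmid side, next to Foxa2, Ibsp and Foxa3, while Akp2 lies at -1.11 in Schmid and 0.89 in Cog.

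Several of these genes are also expressed in bone, vessel or marrow cells, so marker lists of other cell types were summed on each array. The summed signal of 7 endothelial markers was 12.80 to 13.37 in Schmid, 14.71 to 15.61 in its wildtype, 14.18 to 14.75 in Cog and 15.02 to 15.46 in the wildtype of that background. Of these 7, 4 were called lower in Schmid (Cdh5, Kdr, Emcn and Egfl7) and 0 in Cog, and Pecam1 was well above background on 0 of 12 arrays. Cdh5 and Kdr each had another probe, which was not called. The 5 red cell markers read 14.50 to 15.97 in Schmid and 17.91 to 19.87 in wildtype, and 3 of them were called lower. These lists moved the same way as Foxa2, Foxa3 and Ibsp in Schmid, and their part in those differences was not tested.

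The 7 osteoblast markers read 19.07 to 19.52 in Schmid against 19.46 to 20.41, and 19.46 to 19.78 in Cog against 19.70 to 19.94. Of these, 2 were called lower in Schmid, Col1a1 (-1.23) and Ifitm5 (-1.86), and 1 in Cog, Dmp1. The other Col1a1 probes gave -0.41, which was not called, and -1.71, which was. The 6 osteoclast markers read 13.32 to 13.96 in Schmid against 15.03 to 16.44, with Mmp9 called lower. Mmp9, already counted above as a terminal target, was the brightest of them in wildtype at a mean of 15.14 and made up most of the sum. The groups overlapped for Ctsk (-0.64), Acp5 (-0.88) and Tm7sf4 (0.30), which were not called, and Atp6v0d2 was well above background on 0 of 12 arrays. Ibsp and Spp1 are made by these cells too, and the part of osteoblasts and osteoclasts in their levels was not tested.

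The 9 chondrocyte markers were all well above background on every array and read 21.11 to 21.19 in Schmid, 21.37 to 21.60 in its wildtype, 21.28 to 21.51 in Cog and 21.30 to 21.47 in the wildtype of that background. They mark growth plate cartilage as a whole and do not separate hypertrophic from dividing chondrocytes. Of these 9, 1 was called lower in Schmid, Col9a2 (-1.17). The 7 proliferative zone markers read 15.97 to 16.47 in Schmid and 16.64 to 17.96 in wildtype, with Fmod and Mki67 called lower, although the other Mki67 probe gave -0.27 and was not called. For Foxa2 and Foxa3, which mark endoderm elsewhere, 6 markers of that epithelium were summed: they read 13.88 to 13.95 in Schmid and 12.30 to 13.39 in wildtype. The brightest of the 6, Krt8, averaged 13.18 in Schmid and 12.03 in wildtype and was not called (limma adjusted p = 0.0748), while its other probe was (1.53). Cdh1 was called higher but was well above background on 1 of 12 arrays, Ttr was so on 0 of 12, and Apoa1 (-0.37) and Ttr (-0.24) were negative.

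Markers of marrow and muscle moved as well. The 7 neutrophil markers read 12.46 to 15.40 in Schmid against 13.09 to 18.71, with 0 calls, 7 of 7 negative differences and a median of -2.01, and 14.49 to 16.92 in Cog against 13.47 to 13.98, with a median of 1.33. The 8 lymphocyte markers read 13.06 to 13.23 in Schmid against 13.24 to 15.19, with 1 called lower and a median of -1.04. Of these 8, 1 was also called lower in Cog, and 1 higher and 1 lower between the wildtype groups. The 6 skeletal muscle markers read 12.90 to 16.50 in Schmid against 15.42 to 16.45, with 0 calls and a median of -1.10. The part of these cells in the differences of Foxa2, Foxa3 and Ibsp was not tested.

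**Figure D5:**
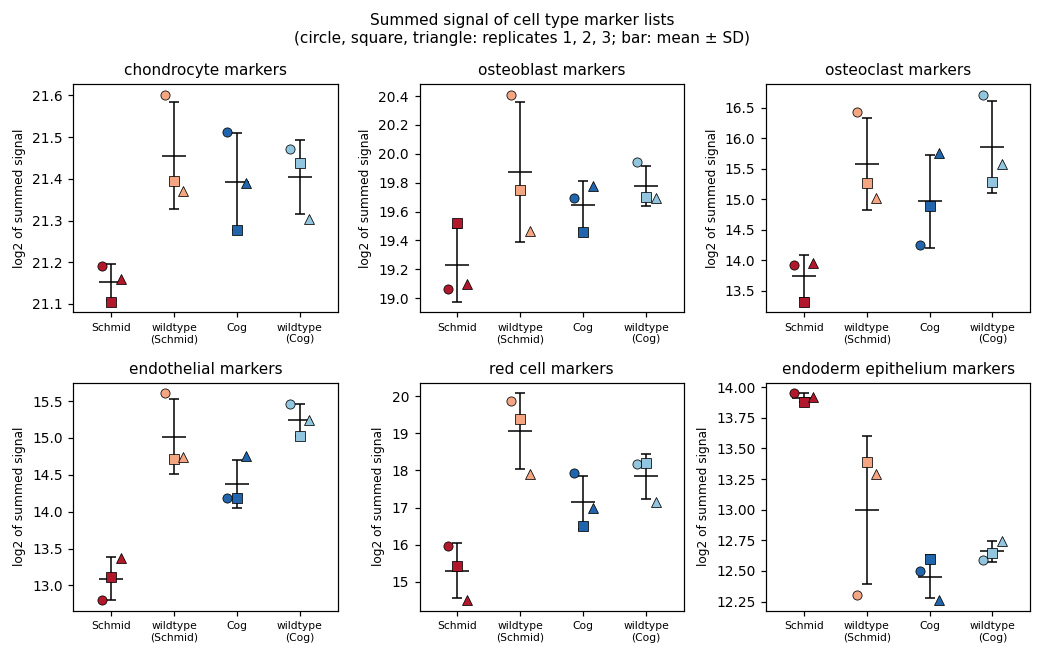
Summed normalized signal, on a log2 axis, of the marker lists of 6 cell types on each of the 12 arrays, with the group mean and SD. The Schmid arrays lie below every wildtype array of their background for the endothelial (12.80 to 13.37), red cell (14.50 to 15.97), osteoclast (13.32 to 13.96) and, by less, chondrocyte (21.11 to 21.19) lists.

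For each member, the 3 most similar genes over the 12 arrays were found by Pearson correlation among 10405 other detected genes. The arrays share normalization and genotype, and no p is attached. Foxa2 was followed most closely by P2ry5 (r = 0.98), Nid1 (0.97) and Esam1 (0.97), and 98 genes exceeded 0.9. Nid1 is a basement membrane protein and Esam1 an endothelial adhesion molecule. Foxa3 was closest to Acaa1b, Copz2 and Tbc1d1 (0.95 each), and Ibsp to Rcn1, Setd8 and Agtrl1 (0.94 each). Runx2 was closest to Cd97 and Stmn1 (0.96 each) and Itm2b (0.94), and Spp1 to Tnfaip8 (0.96), 1110007A13Rik (0.95) and Ttc5 (0.93).

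Col10a1 was closest to a transcript known only as AK149472 (r = 0.90), Bcor (0.89) and Twsg1 (0.87), and none exceeded 0.9. Mef2c was closest to D10Bwg1070e (0.94), Epor (0.91) and Dok2 (0.90), and Runx3 to Ccnf and Akt1s1 (0.95 each) and Refbp2 (0.94). Dlx5 was closest to AK032841 (0.90), Rmi1 (0.89) and 1200013P24Rik (0.86), the last of which dropped to 0.57 without the 2 arrays farthest from the median. No member was among the genes compared, so these lists say nothing of the members' likeness to each other.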

How the data were processed

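The authors deposited the output of Agilent Feature Extraction 9.5.3 for each array, with the foreground and background intensity of every spot before any normalization between arrays, and a table of log2 values of the same arrays. The members, the gene lists and the tests were chosen with earlier results of these data known. Here normexp (offset 50) was applied to the deposited intensities, control and outlier spots were dropped, arrays were brought to common quantiles on the log2 scale, and repeated spots were averaged. The lowest correlation of an array with the deposited log2 values was 0.999871. No column was without a sample. Group means of all 12 arrays were fitted in limma 3.58.1 (R 4.3.3 and version 1.17.8 of the data.table package) with 8 residual degrees of freedom, with Benjamini-Hochberg adjustment over 41174 probes. No fold is given for a member probe against a group in which no array was well above background. The number of arrays limits the precision.

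Replicate numbers, which the labels do not explain, were checked for pairing. Deviations from the group means of mice with the same number correlated by 0.306, 0.283 and 0.117 over 12804 detected probes in the Schmid comparison. The values for the Cog comparison were -0.209, 0.153 and -0.201. The block was used as an alternative.

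Related genes named are those called in Schmid or Cog, with values for a few others chosen after they were seen (Mmp13, Cbfb, Foxa1). Some related genes enter the counts and medians but their values are not reported here. Of the 14 member probes, 13 had an accession found in the RefSeq table under the same symbol. Probe positions are the array's own and were not realigned. Alternatives were other background corrections, scalings, filters, variance models and call rules, the deposited values, trends over rows and probe composition, and leaving out each array. The scripts were tested on simulated data. Proliferative zone arrays and the PCR values of the study were not analysed here.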

Additional observations from a re-analysis of the deposited data

Results flagged for a closer look

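For Foxa2 among the 9 members, and Akp2 and Ihh among the related genes described above, the Schmid and Cog differences from wildtype differed by limma. This was read at the brightest probe, with the adjusted p at most 0.05 and at least 2-fold between the models. The other Cbfb probe, described above, also passed. For Foxa2 the Schmid difference minus the Cog difference was -1.59 on the log2 scale (adjusted p = 0.0195), from -2.12 and -0.52. For Akp2 (Alpl), alkaline phosphatase, it was -2.0 (adjusted p = 0.0100), from -1.11 and 0.89, the only one of these 3 whose 3 arrays were all below wildtype in one model and all above it in the other. For Ihh it was -2.18 (adjusted p = 0.00930), from -3.55 and -1.37, but its other probe gave -0.41 and was not called. The test also passed for marker genes of other cell types, among them Egfl7 (-1.59, adjusted p = 0.0440), Mki67 (-2.42, adjusted p = 0.0182), whose other probe gave 0.08 and was not called, and Cdh1 (1.21, adjusted p = 0.00978), which was well above background on 1 of 12 arrays. No member or related gene had a group of 4 or more samples in which a single outlying array could be tested for.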

How the results depend on the processing

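The counts of members called higher in Schmid, called either way in Cog and differing between the wildtype groups were 0 under every alternative. Over all settings, 0 of the differences of single genes and probes with a call changed sign. The 2 members called lower in Schmid became 1 with the scanner's processed signal after quantile normalization and 0 against a 2-fold change (limma treat), and ran from 1 to 3 with 1 array left out. The single member that differed between the models, Foxa2, became 0 with normexp or processed signal scaled to the 75th percentile and against a 2-fold change, and 0 to 1 with 1 array left out. With the replicate number as a block, Ibsp was added to the members called lower in Schmid (adjusted p = 0.0183), the related gene called higher in Schmid became 0, and no other count of the members or related genes moved by over 1.5 times. Ibsp was called in 8 of the 12 settings apart from leaving out 1 array and the 2-fold test, the block among them. Foxa3 was not called with processed signal at the 75th percentile, so the members behind a count could change. The 1 related gene called higher in Schmid became 0 with normexp at the 75th percentile and against a 2-fold change, 2 with processed quantiles or array weights, 3 with processed signal at the 75th percentile or with row trends removed, and 0 to 2 with 1 array left out. The 4 called lower became 7 with normexp at the 75th percentile, 7 with slide as a random block and 1 against a 2-fold change. In Cog, 1 related gene was called higher with array weights, and 0 to 1 with 1 array left out. The 2 called lower in Cog became 1 with normexp at the 75th percentile, processed quantiles, row trends or row and GC trends removed, 0 with processed signal at the 75th percentile, only Cog and its wildtype fitted, or a 2-fold test, and 0 to 2 with 1 array left out. The cause of these changes was not tested. Scaling to the 75th percentile moved the median of all probes in Schmid from -0.06 to -0.35 with normexp and to -0.40 with processed signal, and in Cog to 0.43 with the latter. Of all probes called in Schmid, 55.2% were higher. The share was 42.6% with normexp at the 75th percentile, 42.0% with processed quantiles and 42.5% with processed signal at the 75th percentile. The slide block had a consensus correlation of -0.12, and fits of 1 model's arrays alone could not be made for differences between models.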
